A study of Saccharomyces cerevisiae with 43 samples.

Results

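The hexose transporter genes HXT1 to HXT7 and the glucose sensor genes SNF3 and RGT2 of Saccharomyces cerevisiae, budding yeast, were followed by their locus tags through every array of the series. All 9 genes, 7 transporters and 2 sensors, were on both array designs, among 5604 features of the first and 6868 features of the second. Each array compared labelled cDNA of 2 RNA samples, and each value is a log2 ratio of a treated sample over its reference, so 1 unit is a doubling and no value is an absolute level. The transcript level of a gene was therefore compared between conditions and never with that of another gene. RNA was total RNA from whole cultures, so a changed share of the RNA and a changed amount of RNA per cell cannot be told apart.

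Yeast takes up glucose by facilitated diffusion through the Hxt proteins, which differ in their affinity for the sugar. Hxt1 and Hxt3 are low-affinity carriers made in ample glucose, Hxt2 and Hxt4 serve lower glucose, and Hxt6 and Hxt7 are nearly identical high-affinity carriers held down by glucose repression. Hxt5 is a moderate-affinity carrier known for its expression in slow growth and under salt or heat stress. Snf3 and Rgt2 are transporter-like proteins that sense extracellular glucose instead of carrying it, Snf3 at low and Rgt2 at high concentrations. Their signal leads to the breakdown of the corepressors Mth1 and Std1 and so lifts the block that Rgt1 places on HXT promoters.

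The first design held 32 arrays of BY4741, a laboratory strain of mating type a, grown for 3 doublings in the glucose-rich medium YPD. Naive cells met 0.4 mM H2O2 and were set against their own start at 10 and 20 min (3 arrays each) and at 30 and 40 min (2 arrays each). Pretreated cells spent 60 min in 0.7 M NaCl and 240 min in stress-free medium before the same H2O2 course, and were set against the recovered cells, with the same array numbers. NaCl itself was followed at 15 and 60 min (1 array each) and at 30 and 45 min (2 arrays each), and the reference for both recovered cells and mock-handled cells, sampled after 240 min, was the untreated culture (3 arrays for each kind). A further 11 arrays, 1 per condition, made up the second design, of cells grown for at least 7 generations, in BY4741 and in nup42-delta, a BY4741 derivative that lacks the nuclear pore gene NUP42. On the second design, BY4741 naive and pretreated samples in H2O2 shared the reference BY4741 T0, whereas both kinds of nup42-delta sample shared the pretreated and recovered nup42-delta culture. The nup42-delta NaCl sample was set against pretreated and recovered BY4741, and untreated nup42-delta against BY4741 T0. Nothing in the sources used here says how many clones of nup42-delta were used, and all arrays carried the dyes in the same orientation, so dye and treatment cannot be told apart.

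NUP42 itself read -5.36 and -4.75 on the 2 arrays that set nup42-delta against BY4741, a loss when the ratio is read as channel 2 over channel 1. Of 288 possible member values on the first design, 22 were missing, 7 of them for RGT2, 4 each for SNF3 and HXT5, and none for HXT1. The 32 arrays lay on 17 slides, 15 of which held 2 arrays, and arrays of the same slide had correlated residuals (0.526 in a fit with slide as a random block). Replicates were numbered by the labels, and nothing says for each pair that they came from separate cultures, so p-values measure the spread between arrays. In the main fit each SE and p-value uses 1 spread per gene, shared by all 14 groups. They do not show the spread of the arrays in the named group. With 1 to 3 arrays in a group, the number of arrays limits the precision.

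The salt arrays ask what NaCl alone does to sugar uptake genes. At 30 min HXT5 and HXT1 had risen by far the most of the members, with smaller rises of SNF3, HXT6 and HXT7, while HXT3 and HXT2 had fallen. Of 8 members tested at 30 min, 7 passed (5 higher and 2 lower), where 52.3% of all genes tested passed. At 45 min 7 of 9 passed (5 higher and 2 lower), against 37.8% of all genes. The median member ratio was 0.92 at 30 min and 0.60 at 45 min, and the median of all genes was -0.01 and -0.02.

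HXT5, the transporter of slow growth and stress, read 3.61 at 15 min, 6.83 and 6.77 at 30 min, 5.67 and 5.46 at 45 min, and 5.54 at 60 min. Every NaCl array was far above the arrays of the recovered cells, which lay between -0.22 and 0.27. The 30 min mean of 6.80 ± 0.21 (SE, n = 2), 111-fold over untreated cells, had an adjusted p of 3.62e-14 in limma. HXT1, the low-affinity carrier of ample glucose, read 3.01 at 15 min, 4.30 and 4.09 at 30 min, 2.61 and 2.54 at 45 min, and 1.74 at 60 min. Its ratio was highest at 30 min and lower at each later time. The 30 min mean of 4.20 ± 0.17 (SE, n = 2) was 18.3-fold over untreated cells, with an adjusted p of 2.66e-14 in limma. The rises of HXT1 and HXT5 at both tested times kept their calls under every alternative run.

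HXT3, the other low-affinity carrier, moved opposite to HXT1. It read -0.59 at 15 min, -1.0 and -1.05 at 30 min, -0.41 and -0.81 at 45 min, and -0.21 at 60 min. All 6 arrays were below 0, and the mean of -1.03 ± 0.26 (SE, n = 2) at 30 min had an adjusted p of 0.00196 in limma, while the mean of -0.61 at 45 min did not pass (adjusted p = 0.0661). HXT2, a carrier of lower glucose, read -0.73 at 15 min, -1.10 and -0.52 at 30 min, -0.82 and -0.97 at 45 min, and -0.59 at 60 min. All 6 of its arrays were also below 0, with adjusted p of 0.0292 at 30 min and 0.0242 at 45 min in limma. HXT4 changed later: it read 0.76 at 15 min, -0.34 and 0.01 at 30 min, -1.11 and -1.48 at 45 min, and -0.71 at 60 min, and passed at 45 min (mean -1.30 ± 0.33, n = 2, adjusted p = 0.00406).

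The high-affinity pair rose. HXT6 read -0.25 at 15 min, 1.06 and 1.23 at 30 min, 1.81 and 1.45 at 45 min, and 1.44 at 60 min. HXT7 read 0.08 at 15 min, 0.72 and 0.67 at 30 min, 0.51 and 0.69 at 45 min, and 1.18 at 60 min. Both passed at 30 min (adjusted p = 0.025 for HXT6 and 0.00778 for HXT7 in limma) and at 45 min (0.00389 and 0.0272). Of the sensors, SNF3 read -0.68 at 15 min, 1.36 and 1.13 at 30 min, 0.82 and 0.65 at 45 min, and 0.81 at 60 min. It was below 0 on the earliest array and above 0 on the 5 later ones, with adjusted p of 6.96e-05 at 30 min and 0.0105 at 45 min. RGT2 read -0.03, -0.23, -0.23, -0.12 and -0.62 on the 5 arrays with a value, and its 45 min mean of -0.18 did not pass (adjusted p = 0.557 in limma).

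Ordered by ratio at 30 min, HXT5 stood above HXT1, HXT1 above SNF3, and SNF3, HXT6 and HXT7 above HXT4, HXT2 and HXT3. The 95% intervals of HXT5 (6.35 to 7.25) and HXT1 (3.84 to 4.55) did not overlap with each other or with that of SNF3 (0.80 to 1.69). The intervals of SNF3, HXT6 (0.28 to 2.01) and HXT7 (0.26 to 1.13) overlapped, as did those of HXT4, HXT2 and HXT3. That of HXT4 (-0.86 to 0.53) also overlapped those of HXT6 and HXT7, although both genes were above HXT4 on each 30 min array. Overlap of intervals is no test of a difference, and the order of these 3 was not tested. Leaving out 1 array of the 30 min group ended the calls of HXT2 (-0.52 without replicate 1, adjusted p = 0.378), HXT6 (1.23 and 1.06, adjusted p = 0.122 and 0.176) and HXT7 (0.67 and 0.72, adjusted p = 0.0923 and 0.0647). At 45 min it ended those of HXT2 (-0.97 and -0.82, adjusted p = 0.126 and 0.188), HXT7 (0.69 and 0.51, adjusted p = 0.11 and 0.234) and SNF3 (0.65 and 0.82, adjusted p = 0.149 and 0.0626) without either array, that of HXT6 without replicate 1 (1.45, adjusted p = 0.0943) and that of HXT4 without replicate 2 (-1.11, adjusted p = 0.101). With equal spread of arrays the calls of HXT2, HXT3, HXT6 and HXT7 at 30 min (-0.60, -0.77, 0.86 and 0.52, adjusted p = 0.312, 0.0814, 0.404 and 0.133) and of HXT2, HXT4, HXT6 and HXT7 at 45 min (-0.86, -1.24, 1.55 and 0.58, adjusted p = 0.143, 0.0587, 0.119 and 0.1) were lost.

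**Figure D1:**
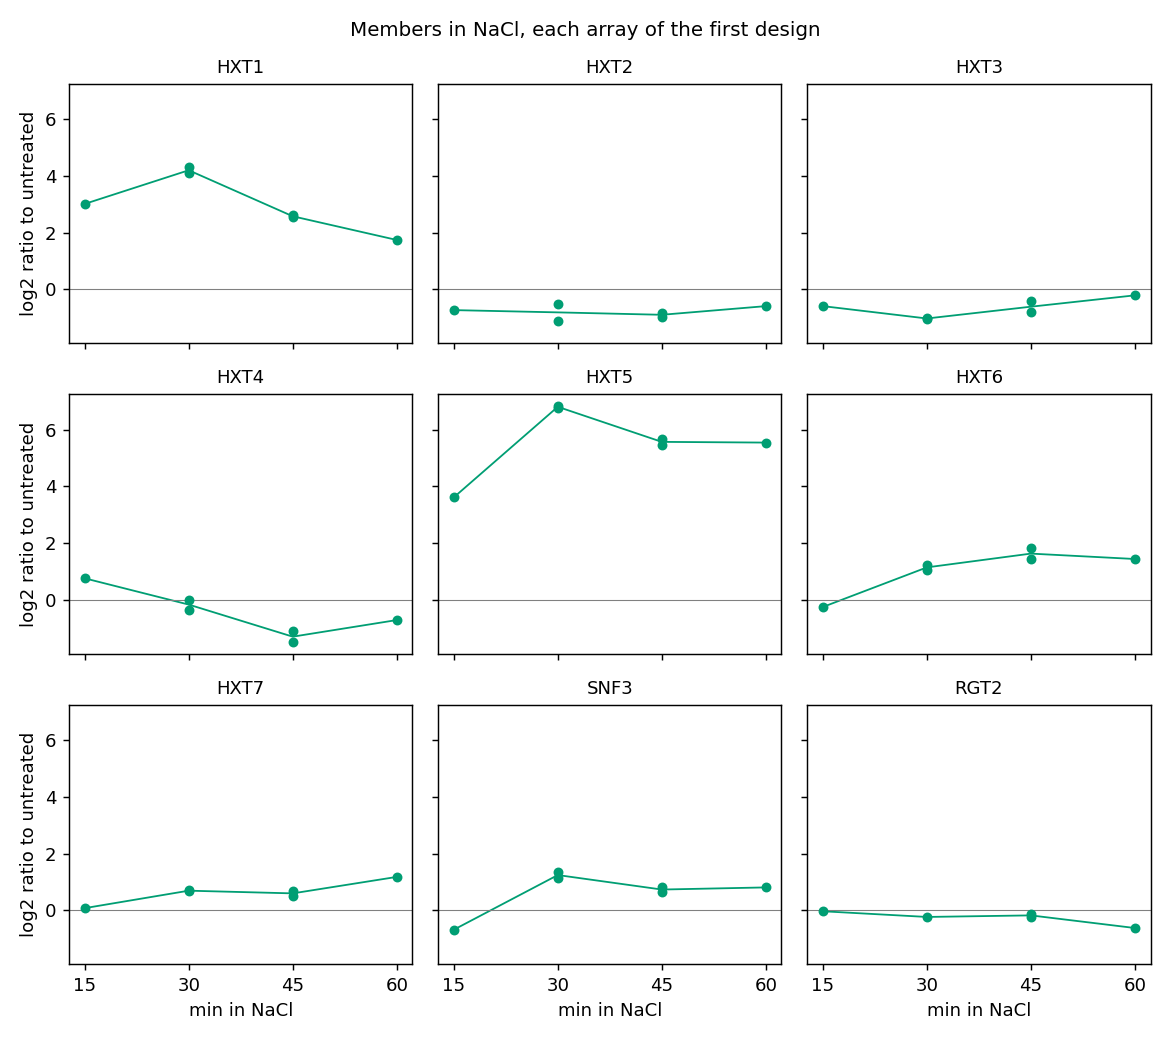
Log2 ratio of each member to untreated cells (vertical axis) against minutes in 0.7 M NaCl (horizontal axis), with each point an array and the line through group means. HXT5 reaches 6.83 and HXT1 4.30 at 30 min, while the other 7 members stay between -1.48 and 1.81.

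The naive H2O2 arrays ask what the oxidant alone does. HXT1 fell further at each later time and HXT5 and HXT7 were higher from 20 min on, while SNF3 was below 0 on every array and RGT2 was lowest at 10 min. The number of members that passed was 3 of 9 at 10 min (33.7% of all genes passed), 4 of 8 at 20 min (54.6%), 4 of 8 at 30 min (55%) and 7 of 9 at 40 min (61.2%). These shares were near those of all genes, so nothing is read from the counts.

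HXT1 read -0.23, -0.30 and -0.74 at 10 min, -1.01, -0.98 and -1.28 at 20 min, -1.56 and -1.50 at 30 min, and -1.68 and -1.85 at 40 min. All 10 arrays were below 0, and the arrays of neighbouring times did not overlap. The mean at 40 min was -1.77 ± 0.17 (SE, n = 2), with an adjusted p of 1.64e-08 in limma. The fall from 10 to 40 min was itself called (-1.34 ± 0.22, adjusted p = 7.82e-05). Without replicate 2 in all groups it was -1.20. With every array scaled to an equal spread it was not called (-0.56, adjusted p = 0.194). That setting scales each array by its median absolute deviation, 0.53 to 0.58 at 10 min and 1.02 and 1.11 at 40 min. It thus shrinks late values against early ones and cannot decide a change between these times. The small 10 min fall (-0.42, adjusted p = 0.0241) lost its call without replicate 2 (-0.49, adjusted p = 0.0539) or without replicate 3 (-0.27, adjusted p = 0.256).

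HXT5 read 0.15 and 0.17 at 10 min, 1.09 and 1.05 at 20 min, 1.32 and 1.87 at 30 min, and 1.75 and 1.81 at 40 min. The 10 min arrays lay below all later ones. Its 40 min mean of 1.78 ± 0.21 (SE, n = 2), 3.43-fold, had an adjusted p of 1.26e-06 in limma. HXT7 read 0.21, 0.46 and -0.29 at 10 min, 0.28, 0.96 and 0.46 at 20 min, 0.68 and 0.82 at 30 min, and 0.95 and 0.83 at 40 min. It was above 0 on every array from 20 min on, with means of 0.57 ± 0.17 (n = 3), 0.75 ± 0.21 (n = 2) and 0.89 ± 0.21 (n = 2) and adjusted p of 0.00769, 0.00447 and 9.02e-04. The HXT7 call was lost without replicate 2 at 20 min (0.37, adjusted p = 0.138) and at 30 min (0.68, adjusted p = 0.0844).

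The other transporters spread widely between replicates. HXT6 is to be read together with the nearly identical HXT7: at 40 min the mean of both was -0.19 and -0.20 on the 2 arrays. HXT6 read -1.37, 0.76 and -0.39 at 10 min, -1.28, 0.70 and -0.36 at 20 min, -0.84 and -0.36 at 30 min, and -1.33 and -1.23 at 40 min. Only the 40 min arrays lay close together, and there the mean of -1.28 ± 0.41 (SE, n = 2) passed (adjusted p = 0.0111 in limma), although not without either array (-1.23 and -1.33, adjusted p = 0.0975 and 0.0788). HXT2 read 1.11 and 0.06 at 10 min, -0.26, 1.07 and 0.02 at 20 min, 1.03 on the only array at 30 min, and -0.62 and 0.59 at 40 min. It passed at none of the 3 times tested. HXT4 read -0.63 and 0.88 at 10 min, -0.63, 0.95 and 0.17 at 20 min, -0.90 and 0.27 at 30 min, and -1.15 and -0.57 at 40 min.

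HXT3 read -0.20, 0.55 and -0.39 at 10 min, -0.44, 0.28 and -0.65 at 20 min, -0.92 and -0.13 at 30 min, and -1.60 and -0.69 at 40 min. HXT3 and HXT4 passed only at 40 min, HXT3 at -1.15 ± 0.26 (SE, n = 2, adjusted p = 5.96e-04) and HXT4 at -0.86 ± 0.33 (SE, n = 2, adjusted p = 0.0301 in limma). Without replicate 1 both calls were lost (-0.69, adjusted p = 0.101, for HXT3 and -0.57, adjusted p = 0.337, for HXT4), and without replicate 2 that of HXT4 was lost too (-1.15, adjusted p = 0.0545). With equal spread of arrays the 40 min calls of HXT3 (-0.69, adjusted p = 0.125), HXT4 (-0.52, adjusted p = 0.466), HXT6 (-0.76, adjusted p = 0.475), HXT7 (0.53, adjusted p = 0.13) and SNF3 (-0.32, adjusted p = 0.358) were lost, as were those of HXT7 at 20 min (0.45, adjusted p = 0.0982) and 30 min (0.51, adjusted p = 0.148). In HXT2, HXT3, HXT4 and HXT6 the array numbered 2 was the higher one at every time where arrays 1 and 2 both had a value.

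Both sensors had fallen by 10 min. RGT2 read -1.39 and -1.04 at 10 min, -1.15 and -0.79 at 20 min, -0.67 and -0.25 at 30 min, and -0.33 and 0.08 at 40 min. The 10 min mean of -1.22 ± 0.21 (SE, n = 2) was the lowest of the 9 members, with rank 179 from the lowest of 5419 genes and an adjusted p of 4.95e-04 in limma. RGT2 also passed at 20 min (-0.97, adjusted p = 0.00127) and not at 30 min (-0.46, adjusted p = 0.0791) or 40 min (-0.13, adjusted p = 0.632), and its rise from 10 to 40 min was called (1.09 ± 0.30, adjusted p = 0.0089) but not without replicate 1 at 10 min (0.92, adjusted p = 0.0696) or replicate 2 at 40 min (0.89, adjusted p = 0.0957). SNF3 read -1.41, -0.66 and -0.70 at 10 min, -1.30 on the only array at 20 min, -1.27 and -0.82 at 30 min, and -0.59 and -0.48 at 40 min. All 8 values were below 0, and the means of -0.92 ± 0.17 (n = 3), -1.05 ± 0.21 (n = 2) and -0.54 ± 0.21 (n = 2) at 10, 30 and 40 min had adjusted p of 5.29e-04, 4.34e-04 and 0.036. The 40 min call of SNF3 was lost without either array (-0.48 and -0.59, adjusted p = 0.212 and 0.131).

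**Figure D2:**
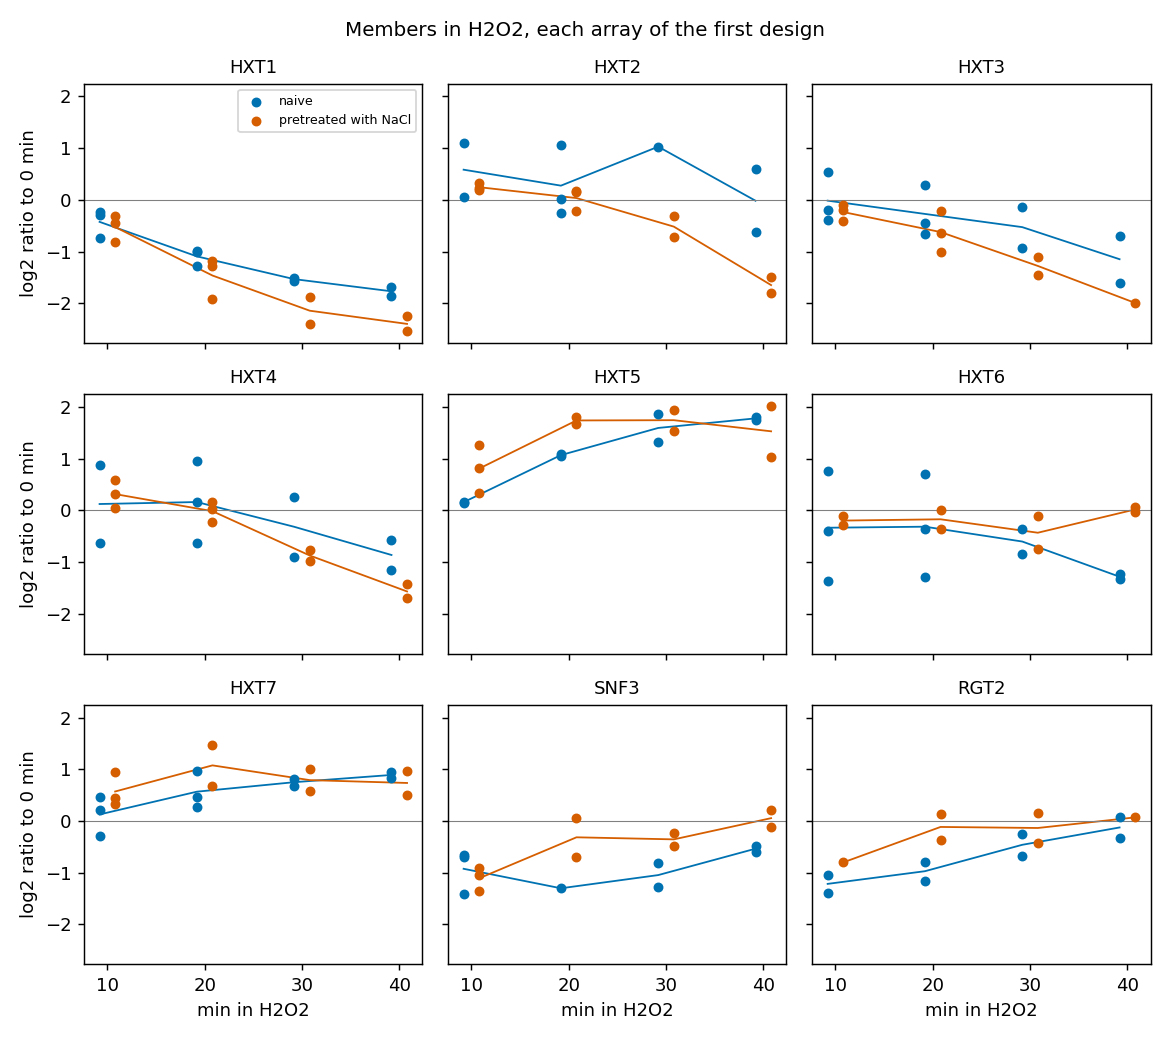
Log2 ratio of each member to its 0 min reference (vertical axis) against minutes in 0.4 mM H2O2 (horizontal axis), with each point an array, naive in blue and pretreated in orange, and lines through group means. HXT1 declines in both courses, to -1.85 on the lowest naive and -2.54 on the lowest pretreated array.

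Cells pretreated with NaCl met the same H2O2 dose after recovery. HXT1 again fell with time, HXT5 and HXT7 were above their reference from 10 min on, and HXT2, HXT3 and HXT4 were low late. At 10 min the calls of HXT5 and HXT7 were lost in a limma fit of these arrays alone (adjusted p = 0.0551 and 0.0704). Neither differed from naive cells at 10 min (adjusted p = 0.456 and 0.609 in limma). Of the members tested, 4 of 8 passed at 10 min (40.2% of all genes), 4 of 9 at 20 min (60.6%), 5 of 9 at 30 min (62.3%) and 5 of 7 at 40 min (63.1%).

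HXT1 read -0.45, -0.31 and -0.81 at 10 min, -1.28, -1.18 and -1.92 at 20 min, -2.40 and -1.88 at 30 min, and -2.54 and -2.25 at 40 min. All 10 arrays were below 0. The 40 min mean of -2.40 ± 0.17 (SE, n = 2), a 5.26-fold fall, had an adjusted p of 9.54e-11 in limma, and the fall from 10 to 40 min was -1.87 ± 0.22 (adjusted p = 6.84e-07). The 10 min fall (-0.52, adjusted p = 0.00495) was not called without replicate 3 (-0.38, adjusted p = 0.0969).

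HXT5 read 0.83, 0.34 and 1.26 at 10 min, 1.67 and 1.81 at 20 min, 1.54 and 1.95 at 30 min, and 1.04 and 2.02 at 40 min. All 9 arrays were above 0, and the means of 0.81 ± 0.18 (n = 3), 1.74 ± 0.21 (n = 2), 1.75 ± 0.21 (n = 2) and 1.53 ± 0.21 (n = 2) had adjusted p of 0.00134, 1.87e-06, 1.5e-06 and 5.45e-06 in limma. Its rise from 10 to 40 min (0.72 ± 0.28, adjusted p = 0.0422) was called, but not without replicate 1 or 2 at 10 min (0.73 and 0.49, adjusted p = 0.0745 and 0.184) or replicate 2 at 40 min (0.23, adjusted p = 0.593). HXT7 read 0.95, 0.44 and 0.32 at 10 min, 1.47 and 0.68 at 20 min, 1.00 and 0.58 at 30 min, and 0.97 and 0.50 at 40 min. It was above 0 on every array, with means of 0.57, 1.08, 0.79 and 0.74 and adjusted p of 0.0107, 1.56e-04, 0.00243 and 0.00417. Without replicate 1 the HXT7 call was lost at 10 min (0.38, adjusted p = 0.167), 30 min (0.58, adjusted p = 0.106) and 40 min (0.50, adjusted p = 0.157). HXT6 read -0.28 and -0.11 at 10 min, -0.35 and 0.01 at 20 min, -0.11 and -0.75 at 30 min, and 0.07 and -0.03 at 40 min, and passed at no time.

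HXT2 read 0.19, 0.32 and 0.23 at 10 min, 0.15, 0.17 and -0.21 at 20 min, -0.72 and -0.31 at 30 min, and -1.80 and -1.49 at 40 min. Only the 40 min mean of -1.65 ± 0.30 (SE, n = 2) passed (adjusted p = 7.98e-05 in limma), and the fall from 10 to 40 min was called too (-1.89 ± 0.39, adjusted p = 5.37e-04), but with equal spread of arrays neither was (-0.93, adjusted p = 0.105, and -1.21, adjusted p = 0.145). HXT3 read -0.20, -0.09 and -0.41 at 10 min, -0.63, -0.22 and -1.01 at 20 min, -1.45 and -1.10 at 30 min, and -1.99 on the only array at 40 min. All 9 values were below 0, and HXT3 passed at 20 min (-0.62, adjusted p = 0.0143) and 30 min (-1.28, adjusted p = 2.04e-04), the former not without replicate 1 (-0.62, adjusted p = 0.052) or replicate 3 (-0.43, adjusted p = 0.166). HXT4 read 0.05, 0.32 and 0.58 at 10 min, -0.22, 0.16 and 0.02 at 20 min, -0.98 and -0.76 at 30 min, and -1.70 and -1.43 at 40 min. It passed at 30 min (-0.87, adjusted p = 0.0281) and 40 min (-1.57 ± 0.33, n = 2, adjusted p = 3.44e-04), the 30 min call not without either array (-0.76 and -0.98, adjusted p = 0.198 and 0.103). With equal spread of arrays HXT3 (-0.40 and -0.73, adjusted p = 0.261 and 0.0994, at 20 and 30 min), HXT4 (-0.50 and -0.88, adjusted p = 0.48 and 0.182, at 30 and 40 min) and HXT7 (0.46 and 0.42, adjusted p = 0.193 and 0.235, at 30 and 40 min) did not pass.

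SNF3 read -1.05, -0.91 and -1.36 at 10 min, -0.69 and 0.06 at 20 min, -0.48 and -0.23 at 30 min, and -0.11 and 0.22 at 40 min. The 10 min mean of -1.11 ± 0.17 (SE, n = 3) passed (adjusted p = 7.41e-05 in limma) and no later mean did, and the rise from 10 to 40 min was called (1.16 ± 0.27, adjusted p = 0.00209). RGT2 had 1 value at 10 min (-0.80) and 1 at 40 min (0.07), with 0.14 and -0.37 at 20 min and 0.16 and -0.43 at 30 min. Neither tested time passed (adjusted p = 0.661 at 20 min and 0.598 at 30 min). Between 10 and 40 min 5 of 9 members changed in naive cells (41.9% of all genes) and 5 of 7 in pretreated cells (44.2%), HXT1 down and HXT5 up in both. With equal spread of arrays the changes from 10 to 40 min lost their calls for HXT1 in naive cells (-0.56, adjusted p = 0.194) and for HXT5 in naive (0.86, adjusted p = 0.0585) and pretreated cells (0.05, adjusted p = 0.927), while that of HXT1 in pretreated cells was kept (-0.82, adjusted p = 0.0467). That setting shrinks the 40 min arrays against the 10 min arrays. The lost calls, also that of HXT2 in pretreated cells, therefore cannot decide a change between these times.

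Pretreated minus naive cells asks whether earlier salt altered the H2O2 response. Of the members tested, 0 of 8 differed at 10 min (0.229% of all genes), 0 of 8 at 20 min (3.76%), 0 of 8 at 30 min (8.93%) and 1 of 7 at 40 min (11.9%) by limma. At an unadjusted p under 0.05, 500, 1228, 1238 and 1234 genes differed at the 4 times. The member was HXT2 at 40 min, with -1.80 and -1.49 in pretreated and -0.62 and 0.59 in naive cells. The groups did not overlap, and the difference was -1.63 ± 0.43 (SE, n = 2 and 2, adjusted p = 0.0158). The call of HXT2 was lost without replicate 2 of the naive cells (-1.03, adjusted p = 0.234) and without replicate 1 of the pretreated cells (-1.48, adjusted p = 0.138). It was also lost with equal spread of arrays (-0.90, adjusted p = 0.998) and in a fit of these arrays alone (-1.63, adjusted p = 0.126).

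Differences that did not pass still bound what the arrays could show. The ratio of HXT1 to its own reference was more negative in pretreated cells, by -0.61 at 30 min (95% interval -1.11 to -0.11, adjusted p = 0.118 in limma) and by -0.63 at 40 min (interval -1.13 to -0.13, adjusted p = 0.0952), with no overlap of arrays at either time. That reference, the recovered cells, itself had HXT1 at 0.51 over untreated cells, and mock-handled cells had it at 0.58. With the array code as a block the same HXT1 differences passed (adjusted p = 0.0257 and 0.0184). All arrays at 30 and 40 min carried the same code, so this block left the differences at -0.61 and -0.63. It altered only the spread behind the p-values and corrected nothing between these groups. HXT5 differed by 0.65 at 10 min (interval 0.07 to 1.23, adjusted p = 0.456) and 0.67 at 20 min (interval 0.03 to 1.31, adjusted p = 0.193), again without overlap. Arrays also did not overlap for RGT2 at 20 min, HXT3 and SNF3 at 30 min, and HXT4, HXT6 and SNF3 at 40 min, none of which passed. With so few arrays such separation is weak evidence, and its share over all genes was not counted. At 30 and 40 min the HXT5 arrays overlapped and the differences were 0.15 and -0.25. RGT2 differed by 0.86 at 20 min (interval 0.21 to 1.5, adjusted p = 0.112) and HXT6 by 1.30 at 40 min (interval 0.08 to 2.52, adjusted p = 0.159). SNF3 differed by 0.69 at 30 min (interval 0.06 to 1.32, adjusted p = 0.16), HXT3 by -0.75 at 30 min (interval -1.50 to 0.00, adjusted p = 0.202) and HXT7 by 0.51 at 20 min (interval -0.05 to 1.07, adjusted p = 0.264).

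The third replicates at 10 and 20 min carried another array code than the rest (4 arrays against 28). Within that code HXT1 differed by -0.07 at 10 min and -0.64 at 20 min, and within the other code by -0.12 and -0.24. HXT7 differed by 0.61 and 0.22 within the first and by 0.36 and 0.85 within the second. Each direction was the same in both codes for HXT1 and HXT7. At 10 min HXT2 (0.17 and -0.86) and SNF3 (-0.66 and 0.06) had opposite directions in the 2 codes, and HXT4, HXT5, HXT6 and RGT2 lacked a value for at least 1 group within the smaller code. The ratios have different references, so the level of pretreated cells relative to untreated cells was also taken as the sum of the recovered ratio and the later H2O2 ratio. On that scale 0 of 8 members differed from naive cells at 10 min (0% of all genes, 382 genes at an unadjusted p under 0.05) and 0 of 8 at 20 min (0.227%, 844 genes). HXT1 turned direction there, at 0.41 (interval -0.09 to 0.92, adjusted p = 0.722 in limma) at 10 min and 0.14 (interval -0.36 to 0.65, adjusted p = 0.817) at 20 min, beside -0.10 and -0.37 for the ratios themselves. With equal spread of arrays the HXT1 level difference was 1.35 at 10 min and passed (adjusted p = 0.0386), and 1.26 at 20 min (adjusted p = 0.0526). That setting multiplies each array by its own factor, which is larger for the recovered than for the H2O2 arrays. The sum is then no level on the log2 scale, and no level difference is read from it.

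**Figure D3:**
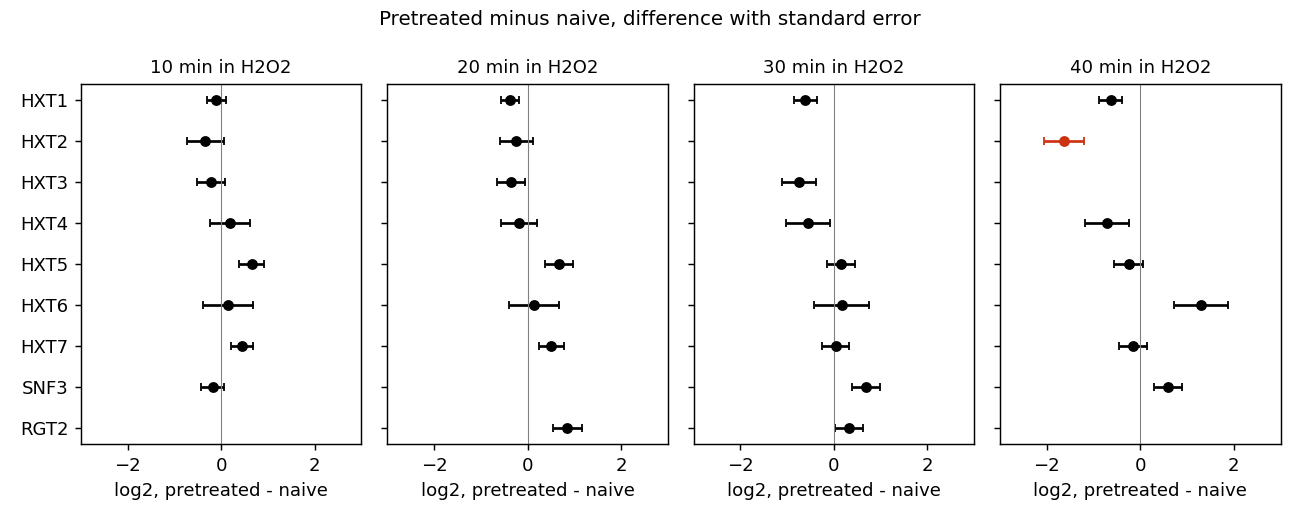
Pretreated minus naive log2 ratio (horizontal axis) of each tested member (vertical axis) at 10, 20, 30 and 40 min in H2O2, with bars of 1 standard error. HXT2 at 40 min, in red, is the member that passed, at -1.63.

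The recovered and mock arrays ask what remained 240 min after the salt or the handling. No member passed in recovered cells (0 of 9, 0% of all genes), in mock cells (0 of 9, 0%) or between them (0 of 9, 0%) by limma, and 473, 205 and 44 genes had an unadjusted p under 0.05. Replicates 1 and 3 of recovered and mock cells each shared a slide, and with slide as a random block no member passed either. Within both slides HXT2, HXT3, HXT4, HXT5 and HXT6 were higher in recovered cells, by 0.08 to 0.56. HXT1 and RGT2 were lower on both slides, although over all replicates the mean of RGT2 was higher in recovered (0.24) than in mock cells (0.08). These within-slide values were not tested, and the share of all genes with the same direction on both slides was not counted. HXT1 read 0.64, 0.43 and 0.47 in the recovered and 0.69, 0.43 and 0.63 in the mock cells. All 6 arrays were above 0 and the groups overlapped. The means were 0.51 ± 0.14 (SE, n = 3, unadjusted p = 0.00135, adjusted p = 0.305) and 0.58 (unadjusted p = 4e-04, adjusted p = 0.999), and they differed by -0.07 (interval -0.48 to 0.34). With every array scaled to an equal spread HXT1 passed in both (1.39, adjusted p = 2.43e-05, in recovered and 1.63, adjusted p = 1.07e-05, in mock cells). These arrays have a small spread and were stretched by that setting, so 1.39 and 1.63 are not log2 ratios of the samples. HXT5, 111-fold up at 30 min of NaCl, read -0.22, 0.27 and 0.01 after recovery, with a mean of 0.02 (interval -0.35 to 0.39). The other 7 members lay between -0.67 and 0.68 after recovery and between -1.23 and 0.29 after mock treatment, with HXT6 the lowest in both.

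**Figure D4:**
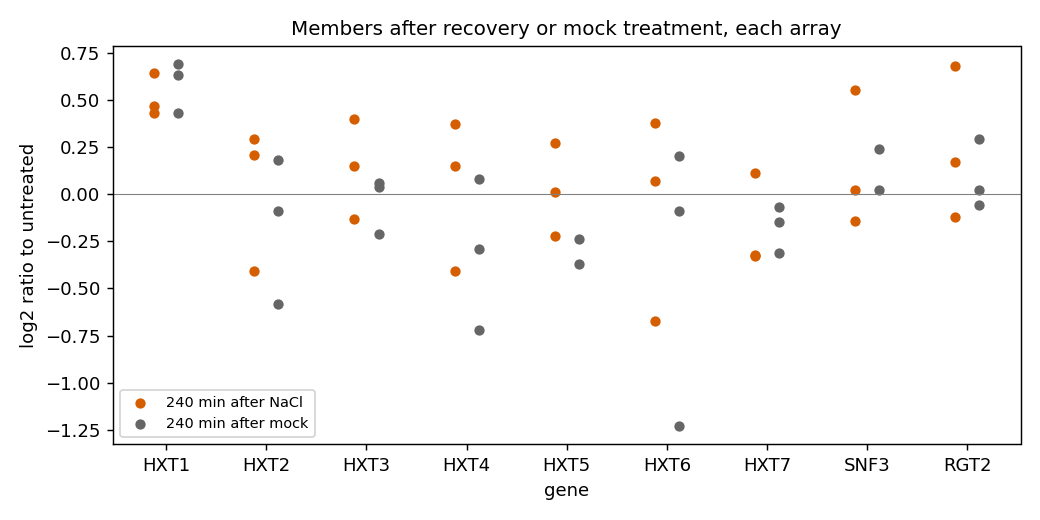
Log2 ratio of each member (horizontal axis) to untreated cells (vertical axis) 240 min after NaCl (orange) or after mock treatment (grey), with each point an array. HXT1 lies between 0.43 and 0.69 on all 6 arrays, and each other member has values on both sides of 0 over the 6 arrays.

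NaCl and H2O2 were also compared directly at 30 min. HXT1, HXT5, SNF3 and HXT6 were higher in NaCl, 4 of 7 members tested, where 44.6% of all genes differed. HXT1 differed by 5.73 ± 0.24 (SE, n = 2 and 2, adjusted p = 2.11e-13 in limma), since it rose in NaCl and fell in H2O2. HXT5 rose in both and was 5.21 ± 0.30 higher in NaCl (adjusted p = 6.57e-10). SNF3 also had opposite directions and differed by 2.29 ± 0.30 (adjusted p = 1.23e-05). HXT6 differed by 1.75 (adjusted p = 0.0207), but not without either NaCl array (1.83 and 1.66, adjusted p = 0.0712 and 0.0848) or naive replicate 1 (1.51, adjusted p = 0.122), nor with equal spread of arrays (1.27, adjusted p = 0.43). HXT7, HXT3 and HXT4 differed by -0.06, -0.50 and 0.15 and did not pass.

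On the second design each condition is 1 array, so values are given without a test, and a member is counted where its log2 ratio was at least 1 either way. In NaCl at 30 min 8 of 9 members were past that size in BY4741 (36.6% of all features) and 7 of 9 in nup42-delta (34%). HXT5 read 6.96 in BY4741 and 6.70 in nup42-delta, and HXT1 read 2.44 and 2.17. HXT6 read 2.31 and 1.16, HXT7 2.19 and 1.16, and HXT4 1.18 and 1.25. For HXT4 the first design differed, with a mean of -0.165 at 30 min and a fall at 45 min, a time that the second design lacks. HXT3 read -2.56 and -2.59 and HXT2 -1.41 and -1.57. SNF3 read 1.10 and 0.65, and RGT2 0.16 and -0.03. All but RGT2 had the same sign in both strains, but their references differed, so no size is compared.

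In untreated nup42-delta against BY4741, 1 of 9 members was past the size (3.1% of all features). It was HXT3 at -1.02, and HXT1 read -0.97, just short of it. HXT5, HXT6, HXT7 and HXT4 read 0.60, 0.56, 0.63 and 0.41, while HXT2, SNF3 and RGT2 read -0.31, -0.26 and 0.03.

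In BY4741 H2O2 moved past the size 1 of 9 members in naive cells at 10 min (5.66% of all features), 2 at 20 min (12.3%), 1 in pretreated cells at 10 min (12.6%) and 3 at 20 min (31.9%). In nup42-delta the counts were 1 in naive cells at 10 min (5.69%), 1 at 20 min (15.6%), 0 in pretreated cells at 10 min (7.18%) and 1 at 20 min (17.5%). HXT1 in BY4741 read -1.46 and -1.76 in naive and -0.85 and -2.16 in pretreated cells at 10 and 20 min. In nup42-delta it read -0.50 and -0.77, then -0.48 and -0.92. HXT1 was thus below 0 on all 8 H2O2 arrays, as on the first design. The arrays of each strain shared 1 reference, so these signs are not independent.

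HXT5 in BY4741 read 0.63 and 1.91 in naive and 0.96 and 2.63 in pretreated cells, and in nup42-delta 2.12 and 2.17 in naive and 0.79 and 1.62 in pretreated cells. It was above 0 on all 8 arrays, which share references within a strain. It was higher in pretreated than naive BY4741 and lower in pretreated than naive nup42-delta. HXT3 in BY4741 read -0.53 and -0.59 in naive and -1.07 and -1.84 in pretreated cells, and in nup42-delta 0.06 and -0.03, then -0.31 and -0.52. HXT2 in BY4741 read 0.17 and 0.26, then -0.28 and -0.71, and in nup42-delta 0.71 and 0.73, then 0.06 and 0.08. Both were lower in pretreated than naive cells at both times and in both strains. SNF3 in BY4741 read -0.61 and -0.93 in naive and -0.49 and 0.05 in pretreated cells, and in nup42-delta -0.49 and -0.69, then -0.23 and -0.20. RGT2 in BY4741 read -0.34 and -0.58 in naive and -0.09 and 0.40 in pretreated cells, and in nup42-delta -0.22 and -0.52, then -0.34 and -0.13. At 20 min both sensors were higher in pretreated than naive cells of both strains.

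The other 3 transporters stayed within 1 unit of 0 on the H2O2 arrays. HXT4 in BY4741 read 0.79 and 0.81 in naive and 0.35 and 0.20 in pretreated cells, and in nup42-delta -0.43 and -0.25, then 0.29 and 0.46. HXT6 in BY4741 read 0.45 and 0.59, then 0.38 and 0.11, and in nup42-delta -0.49 and -0.45, then 0.25 and 0.27. HXT7 in BY4741 read 0.59 and 0.61, then 0.42 and 0.50, and in nup42-delta -0.49 and -0.30, then 0.13 and 0.41. All 3 were above 0 on the 4 BY4741 arrays and on both pretreated nup42-delta arrays, and below 0 on both naive nup42-delta arrays, whose reference was the pretreated and recovered culture.

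**Figure D5:**
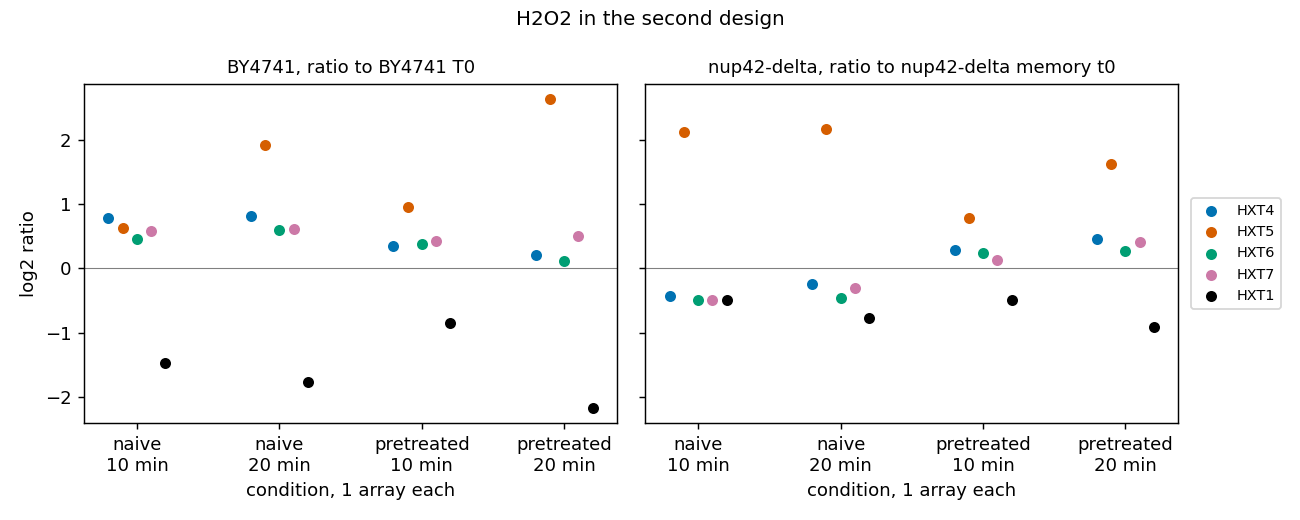
Log2 ratio (vertical axis) of HXT1, HXT4, HXT5, HXT6 and HXT7 in 4 H2O2 conditions (horizontal axis), 1 array each, in BY4741 (left) and nup42-delta (right), each strain with its own reference. HXT4, HXT6 and HXT7 are above 0 in naive BY4741 and below 0 in naive nup42-delta.

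HXT6 and HXT7 encode nearly identical proteins and their probes may share signal, which was not tested. On the second design the 11 arrays gave both genes the same sign throughout, with a median absolute difference of 0.12 and a largest difference of 0.39. On the first design, over 29 arrays with both values, the median absolute difference was 0.76 and the largest 2.28, and the signs were opposite on 16 arrays. The difference was above 0.5, a size chosen after the values were seen, on 18 arrays of the first design and on 0 of the second. The 2 genes are therefore given side by side here, and the HXT6 fall at 40 min in naive cells (-1.28) stands beside an HXT7 rise on the same arrays (0.89). The mean of both genes was -0.19 and -0.20 on these arrays, 0.52 and 0.235 in pretreated cells at 40 min, and 0.89 and 0.95 at 30 min of NaCl. Whether the 2 genes changed in opposite directions in H2O2 was not tested.

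Over the 14 group means of the first design, members were compared with each other and with 5087 genes by Pearson correlation, as a description only, since groups share references and some are 1 array. HXT6 was most like HXT5 (0.79) and SNF3 (0.77) among the members, HXT1 like HXT5 (0.71) and HXT6 (0.69), while HXT6 and HXT7 correlated at 0.22. HXT3 was closest to HXT4 (0.63) and HXT2 (0.63). In the RefSeq table HXT4, HXT1 and HXT5 are neighbours, with AHT1 between HXT4 and HXT1, and so are HXT7, HXT6 and HXT3, with YDR344C between HXT6 and HXT3. The neighbours HXT1 and HXT4 correlated at 0.26 and HXT6 and HXT3 at 0.05.

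Outside the members, HXT3 was most like the ribosomal protein genes RPS19B, RPS18A and RPS9B (each 0.99). HXT5 was most like TKL2, a transketolase (0.97), GPP2, a glycerol phosphatase of the osmotic response (0.97), and GRX7, a glutaredoxin (0.97). HXT1 was most like GNP1, an amino acid permease (0.97), YIL086C (0.97) and PEX31, a peroxisomal gene (0.96). The nearest gene was SDC1 for HXT2 (0.92), NIF3 for HXT4 (0.92), PDR8 for HXT6 (0.93), YPK2 for HXT7 (0.96), MON2 for SNF3 (0.96) and WSC4 for RGT2 (0.90).

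The genes around the transporters were taken by lists, in naive cells at 40 min, pretreated cells at 40 min and NaCl at 30 min, where 61.2%, 63.1% and 52.3% of all genes passed. Counts near or below these shares are a description of the list and no result about it. Of 10 genes of the glucose induction pathway, all tested, 2 were higher and 3 lower at 40 min in naive cells, 1 and 3 in pretreated cells, and 3 and 3 at 30 min of NaCl, so 5, 4 and 6 of 10 beside 61.2%, 63.1% and 52.3% of all genes. The medians were -0.04, 0.01 and -0.24, beside -0.08, -0.04 and -0.01 of all genes. TUP1, a general corepressor, read -0.59, -1.36 and -0.46 in the 3 comparisons and passed in each. STD1, a corepressor with Rgt1, read -0.58 in naive and -0.47 in pretreated cells, and MTH1, its paralog, 1.24 in NaCl. GRR1, the F-box protein of that pathway, read -0.58 in naive cells and 0.68 in NaCl, and its partners SKP1 0.45 in naive cells and CDC53 1.02 in pretreated cells and 1.09 in NaCl. CYC8, the partner of TUP1, read -0.70 in pretreated cells.

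Of 5 hexose phosphorylation genes, 3 were higher and 0 lower of 5 tested in naive cells, 2 and 1 of 4 in pretreated cells, and 3 and 0 of 5 in NaCl, with medians of 2.44, 1.80 and 2.76, while 61.2%, 63.1% and 52.3% of all genes passed. GLK1, glucokinase, read 2.97, 3.74 and 4.19, and HXK1, a hexokinase, 2.44, 3.24 and 3.47. EMI2 read 3.33 in naive cells and 2.76 in NaCl, and HXK2, the hexokinase of ample glucose, -1.36 in pretreated cells. Of 21 genes of Snf1 and glucose repression, 3 were higher and 3 lower of 19 tested in naive cells, 6 and 4 of 18 in pretreated cells, and 5 and 0 of 17 in NaCl, with medians of 0.06, 0.00 and 0.28, each share below the 61.2%, 63.1% and 52.3% of all genes. NRG1, a repressor, read 2.39, 2.14 and 1.85. MIG1 and MIG2, repressors of glucose-repressed genes, read -1.06 and -0.94 in naive cells, REG2, a phosphatase subunit, -1.28 in naive and -0.90 in pretreated cells, and REG1, its paralog, 1.21 in pretreated cells. In NaCl ADR1, an activator, read 1.74, TOS3, a kinase of Snf1, 1.74 and NRG2 1.30.

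Of 19 glucose-repressed genes, 2 were higher and 0 lower of 13 tested in naive cells, 2 and 4 of 12 in pretreated cells, and 2 and 2 of 11 in NaCl, with medians of -0.07, 0.27 and 0.11, each share below the 61.2%, 63.1% and 52.3% of all genes. FBP26, fructose-2,6-bisphosphatase, read 3.49, 2.78 and 2.26, and CYC1, cytochrome c, 3.24, 2.77 and -2.50, so the latter had opposite directions in H2O2 and NaCl. ATO3 read -2.03 in pretreated cells and -2.21 in NaCl, GAL4 -0.97 in pretreated cells and JEN1, a lactate permease, 1.22 in NaCl. Of 10 other hexose transporters 3 were on the first array design, and 0 of 2 tested passed in naive cells, none was tested in pretreated cells, and 1 of 3 passed in NaCl, GAL2, the galactose permease (1.76), with medians of 0.34 and -0.48 in naive cells and NaCl. GAL2 read 4.60 in BY4741 and 4.43 in nup42-delta on the second design's NaCl arrays.

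Of 14 genes of transporter turnover, 6 were higher and 3 lower of 14 tested in naive cells, 6 and 1 of 13 in pretreated cells, and 7 and 1 of 12 in NaCl, with medians of 0.87, 1.09 and 1.21, beside 61.2%, 63.1% and 52.3% of all genes passing. VID30, of the GID ubiquitin ligase, read 1.57, 2.25 and 1.62, its partner GID8 1.27 in naive and 1.28 in pretreated cells, and VID28 1.76 in pretreated cells and 1.34 in NaCl. VPS27, of endosomal sorting, read 1.43 in naive and 1.53 in pretreated cells, BUL2, an adaptor of the ubiquitin ligase Rsp5, -1.27 in naive cells, PEP4, the vacuolar protease, 2.06 in NaCl and CSR2 1.99 in NaCl. Of 13 genes of glucose sensing through cAMP, 5 were higher and 3 lower of 13 tested in naive cells, 5 and 2 of 10 in pretreated cells, and 7 and 1 of 12 in NaCl, with medians of 0.02, 0.60 and 0.79, beside 61.2%, 63.1% and 52.3% of all genes passing. TPK2, a catalytic subunit of protein kinase A, read 3.05, 2.71 and 1.56 in the 3 comparisons. RAS1 read -2.17 in naive and -1.74 in pretreated cells, BCY1, the regulatory subunit, 1.5 in pretreated cells, PDE1, a cAMP phosphodiesterase, 1.89 in naive cells and 1.00 in NaCl, and GPA2 1.57 in NaCl. All values of the genes named from the lists on the first design passed limma's test over all genes at an adjusted p of at most 0.047.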

How the data were processed

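Expression was measured on 2-colour spotted arrays with total RNA labelled through amino-allyl-dUTP, per the labels' protocols. The deposited values are log2 ratios per gene; their normalization and spot filters by the authors were not given in the sources used here, and base and direction (channel 2 over channel 1) were inferred from the values and NUP42. Without intensities, dim spots could not be filtered. Ratios against 0 leave out the spread of the controls.

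The 9 members, the gene lists and the comparisons were chosen with earlier results of these data known. The 32 arrays of the first design (14 groups) were fitted by group means with limma 3.58.1 in R 4.3.3, testing genes with at least 2 values in each group, with Benjamini-Hochberg adjustment over all genes tested and a threshold of 0.05, in 22 comparisons. The fit was tested on simulated data. Second-design values (11 arrays) have no test. Named genes were all members, per list up to 4 passing genes with the largest ratio in 3 comparisons, and the genes most correlated with a member. The values of 1 gene that this rule names are not reported here. Alternatives were the slide, replicate number or array code as a block, equal spread of arrays, own arrays only, genes with values on all arrays, another fold, and arrays left out. Equal spread multiplied each array by its own factor, so its values are on a changed scale. The 4 arrays of another code were kept. RefSeq names and neighbours came from the R64 table; no sequences or coordinates were used.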

Additional observations from a re-analysis of the deposited data

Results flagged for a closer look

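Differences between groups brought up these values. HXT2 differed between pretreated and naive cells at 40 min in H2O2 by -1.63 (limma), and at 30 min the pretreated arrays were below 0 and the only naive array above it, with a difference of -1.55 (-1.545) that was not tested.

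On the second design, pretreated minus naive had opposite signs in BY4741 and nup42-delta at both 10 and 20 min for 4 of 9 members (44.4%), a pattern chosen after the values were seen that also held for 837 of 6534 features (12.8%). HXT4 differed by -0.43 and -0.61 in BY4741 and by 0.72 and 0.70 in nup42-delta. HXT5 differed by 0.33 and 0.71 in BY4741 and by -1.33 and -0.55 in nup42-delta. HXT6 differed by -0.079 and -0.48 in BY4741 and by 0.73 and 0.72 in nup42-delta. HXT7 differed by -0.16 and -0.12 in BY4741 and by 0.62 and 0.71 in nup42-delta. Each value compares 2 arrays that share a reference, the difference between the strains was not tested, and HXT6 and HXT7 may share signal. The first design gave BY4741 level differences at 10 and 20 min of 0.065 and 0.07 for HXT6 and 0.26 and 0.33 for HXT7. They were 0.23 and -0.14 for HXT4 and 0.67 and 0.69 for HXT5, and none passed in limma. There HXT6 and HXT7 at both times, and HXT4 at 10 min, had the sign of nup42-delta. For these the 2 designs differ in sign in BY4741, while HXT4 at 20 min was below 0 on both. The 95% intervals of all these first-design values include 0, for HXT6 at 10 min from -1.25 to 1.38. No difference between the designs is therefore read from the signs.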

How the results depend on the processing

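Of 2359 alternative results of single members, 2172 kept their side of the threshold, 159 lost a call, 27 gained one and 1 reversed (HXT5 from 10 to 40 min in pretreated cells, 0.72 with all arrays, -0.005 without replicate 2 and 1.22 without replicate 1). Among those that kept their side, 177, of 67 results, changed sign while called under neither setting, the largest at 0.63 in size. Of 65 calls, 21 were kept under every alternative run for them, 27 were lost when 1 array was left out (added after seeing the data for comparisons of 1 group), 36 without replicate 1, 31 with equal spread of arrays and 11 with own arrays only.

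With equal spread of arrays the members called were 2 at 40 min naive, 2 at 30 and 2 at 40 min pretreated, 0 for pretreated minus naive at 40 min, 1 for the level difference at 10 min, 1 in recovered and 2 in mock cells, 3 at 30 and 3 at 45 min of NaCl, and 1 (naive) and 2 (pretreated) from 10 to 40 min. With own arrays only they were 1 and 2 at 10 and 20 min pretreated, 0 for pretreated minus naive at 40 min and 3 for naive 40 minus 10 min. Among the 2407 genes with a value on all arrays HXT1 was the only member, so that 1 was called in all 4 naive and all 4 pretreated times, in NaCl at 30 and 45 min, in NaCl minus H2O2 and from 10 to 40 min in both courses, and 0 for pretreated minus naive at 40 min. The array code as a block gave 1 and 2 for pretreated minus naive at 30 and 40 min, where all arrays carried the same code. A fold of 0.58 on the log2 scale counted 49 second-design values instead of 26.

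The replicate number as a block gave 2 members, HXT1 and HXT2, for pretreated minus naive at 40 min and moved no other count of calls by over 1.5 times. Same-numbered arrays correlated at 0.03, -0.03 and 0.379 at 10 min and 0.185, 0.034 and 0.558 at 20 min, 0.172 and 0.169 at 30 min and 0.039 and 0.035 at 40 min, and between recovered and mock cells at 0.508, 0.12 and 0.096. Not every pair of a set of 3 was over 0.1, so the numbers were not taken as pairs. Leaving out replicates gave 0 to 3, 2 to 4, 2 to 4 and 2 to 7 members at the 4 naive times, 1 to 4, 2 to 4, 2 to 5 and 4 to 5 at the 4 pretreated times, 0 to 1 and 0 to 2 for pretreated minus naive at 30 and 40 min, 3 to 7 and 2 to 7 at 30 and 45 min of NaCl, 3 to 4 for NaCl minus H2O2, and 2 to 6 (naive) and 3 to 5 (pretreated) from 10 to 40 min. The cause of these changes was not tested.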

Other observations

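On the first design's NaCl arrays the earliest time stood apart for several members. At 15 min HXT4 read 0.76, SNF3 -0.68 and HXT6 -0.25 on the only array, and by 45 min each had the opposite sign on both arrays. MIG2 read -3.54 and -3.90 in naive and -3.75 and -3.38 in pretreated BY4741 at 10 and 20 min of H2O2 on the second design. MTH1, which acts with Rgt1, read -1.46 and -1.57 in naive BY4741 in H2O2 and 1.62 in NaCl.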
